A study of Mus musculus with 4 samples.

Results

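The 9 genes described here are the Cyp4a and Cyp4f omega-hydroxylases Cyp4a10, Cyp4a12a, Cyp4a12b, Cyp4a14, Cyp4a31, Cyp4f13, Cyp4f14 and Cyp4f15 and their relative Cyp4v3. They were chosen by gene name, with earlier results of these data known, and they hold 13 of the 39429 probes and 9 of the 30139 gene names of the array. RNA labelled AAV_Cre came from whole livers of female C57B/6 mice given an adeno-associated virus with Cre recombinase, and RNA labelled AAV_Null from mice given the control virus. Both sets of mice were 8 to 10 weeks old, carried the floxed Trib1 allele on both chromosomes, ate chow, and were killed 1 week after the virus and 4 hours into a fast. Cre recombinase cuts out sequence between loxP sites, and the labels call the AAV_Cre livers the liver knockout of Trib1 and the AAV_Null livers its wild type. The study asked how Trib1 in the liver acts on lipid synthesis; the protein is a pseudokinase through which the factor C/EBPα reaches a ubiquitin ligase. The labels used here give neither the promoter that drives Cre nor the floxed part of Trib1, and leave unsaid whether animals were pooled for an RNA.

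Enzymes of the Cyp4 family are P450s of the endoplasmic reticulum that put a hydroxyl group on the last carbon of a fatty acid chain. Alcohol and aldehyde dehydrogenases turn the product into a dicarboxylic acid, which peroxisomes shorten. In mouse liver, Cyp4a10 and Cyp4a14 are classical targets of the fasting-activated nuclear receptor PPARα, and Cyp4a12a is male-biased and makes the eicosanoid 20-HETE from arachidonic acid. Mouse Cyp4f enzymes act on leukotrienes and other long chains.

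The Cyp4a genes are near copies, so the probe sequences decide what each value measures. All probes were 60 bases long. The pair that aligned over its whole length is the Cyp4a10 probe at transcript base 1193 and the Cyp4a31 probe at base 1181. They had 54 identical and 6 differing bases, with a longest identical run of 27, and capitals mark the differing bases:
Cyp4a10 base 1193: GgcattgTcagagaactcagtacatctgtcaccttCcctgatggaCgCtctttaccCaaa
Cyp4a31 base 1181: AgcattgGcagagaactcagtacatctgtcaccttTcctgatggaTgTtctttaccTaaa
The probes that stand for these genes in the results, at base 2031 of Cyp4a10 and base 2441 of Cyp4a31, overlapped by 47 bases, of which 44 were identical, with a longest run of 34. The last 30 bases of that overlap are shown, again with the differing bases in capitals:
Cyp4a10 base 2031, probe bases 18 to 47: ccctcctttctgcaataaagTtccCagtgt
Cyp4a31 base 2441, probe bases 31 to 60: ccctcctttctgcaataaagGtccAagtgt
The Cyp4a31 probe at base 736 is shown because the array annotates it to Cyp4a10 as well as to Cyp4a31:
Cyp4a31 base 736: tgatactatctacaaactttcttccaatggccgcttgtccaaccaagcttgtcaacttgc
The first 30 bases of the single probes of the other members whose values lead the results are these:
Cyp4a14 base 2326: aggttgttctctgcttttgactcctgagct
Cyp4a12b base 2335: cctttcagcttacatttaagagtcttgcca
Cyp4a12a base 2259: atgcatatctgaaagagccaattttcaacc
Cyp4f14 base 1949: gactattctctgaacaacataggaagccaa
The probe for Cyp4a12a is annotated to both Cyp4a12 copies, while that for Cyp4a12b is annotated to Cyp4a12b alone. The probe at base 1193 of Cyp4a10 is annotated to Cyp4a32 too. How much of a copy's RNA each probe binds was not tested, so values of Cyp4a10 and Cyp4a31, and of the Cyp4a12 copies, are uncertain as values of 1 gene.

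**Figure D1:**
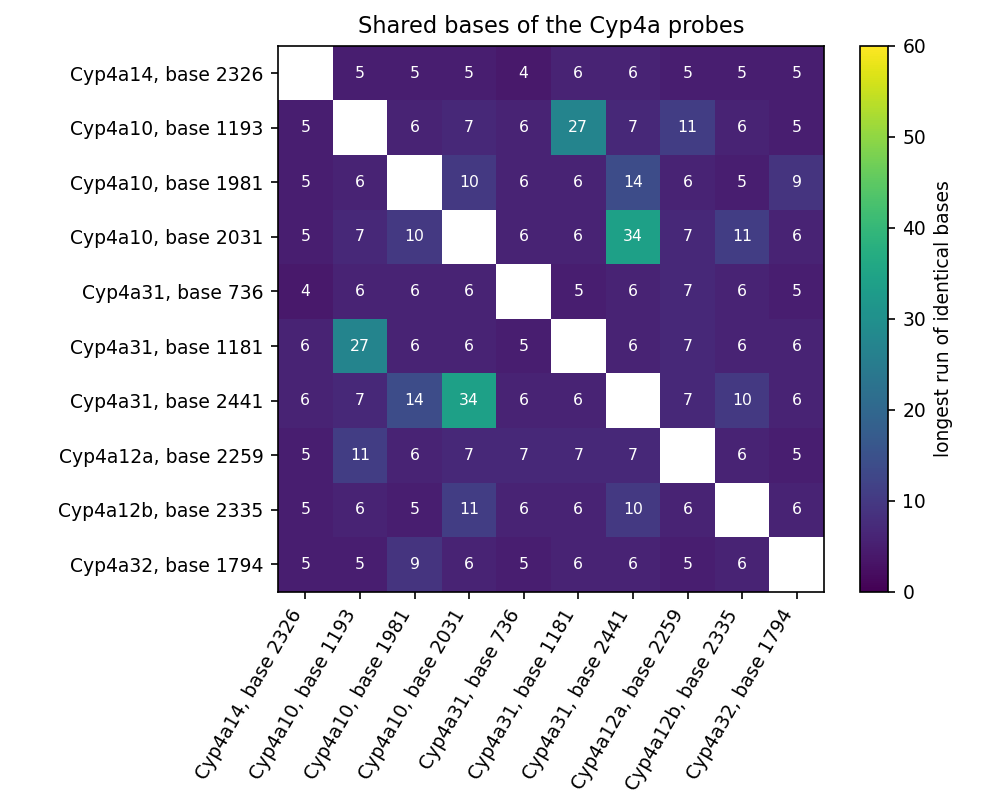
Longest run of identical bases between each pair of Cyp4a probes, 60 bases each, with both axes listing the probes by gene and transcript base and colour giving the run in bases. The Cyp4a10 and Cyp4a31 probes share runs of 34, 27 and 14 bases, and no other pair shown exceeds 11.

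Each of the 4 arrays held 1 RNA of each treatment, and AAV_Cre carried the dye Cy5 on arrays 1 and 2 but Cy3 on arrays 3 and 4. Between 51.0% and 58.7% of spots per channel were well above background and 0 were saturated. Log2 ratios correlated across genes at 0.66 between arrays 1 and 2, at 0.49 between arrays 3 and 4, and at 0.067 to 0.19 where the dye orientations were opposite. Such correlations are across genes, which are no replicates of each other. Trib1 was not lower in the RNA labelled AAV_Cre. Its probes at bases 2846 and 3033 of 1 transcript had log2 ratios of 0.94 ± 0.079 and 1.29 ± 0.11 (SE, n = 4 arrays), with adjusted p of 0.0239 and 0.0243 over probes in limma, and a probe of another transcript had -0.047 ± 0.049. Since a probe that lies outside the removed sequence would not check the labels, directions below are simply those of the RNA labelled AAV_Cre over the RNA labelled AAV_Null.

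Of the 9 Cyp4 genes, Cyp4a14, Cyp4a31, Cyp4f14 and Cyp4a10 were lower and Cyp4a12b was higher in RNA labelled AAV_Cre. Cyp4a14 was at 0.400 of its AAV_Null level and Cyp4a12b at 2.11 times it. Cyp4a12a, Cyp4v3, Cyp4f13 and Cyp4f15 did not pass. The test was limma with a treatment and a dye effect, at an adjusted p of 0.05 over 16081 genes, each represented by its brightest probe. In all, 444 genes, or 2.76%, passed it, 287 higher and 157 lower, so 5 of 9 members stands beside a background of 2.76%. These shares are no test of the set, since the members were chosen with earlier results of these data known. The calls of Cyp4a10 and Cyp4a31 also come from probes with 44 identical bases in an overlap of 47. All 13 member probes were well above background in all 8 channels, and so none was lost to the filter on dim probes. At the level of probes, 1 member probe was higher and 5 were lower, against 2.37% of 20337 probes that passed in either direction. The median log2 ratio was -0.28 over the 9 members and -0.0026 over all genes. Without any 1 of the arrays 1, 2, 3 and 4 in turn, 0 members passed in limma, and 13, 0, 37 and 0 genes did. In those fits 7, 6, 7 and 7 members had an unadjusted p under 0.05. Cyp4a14 had no test without array 1, 2 or 4, so there it could neither pass nor be counted. The unadjusted p was under 0.05 for all 9 members and for 3634 of the 16081 genes.

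**Figure D2:**
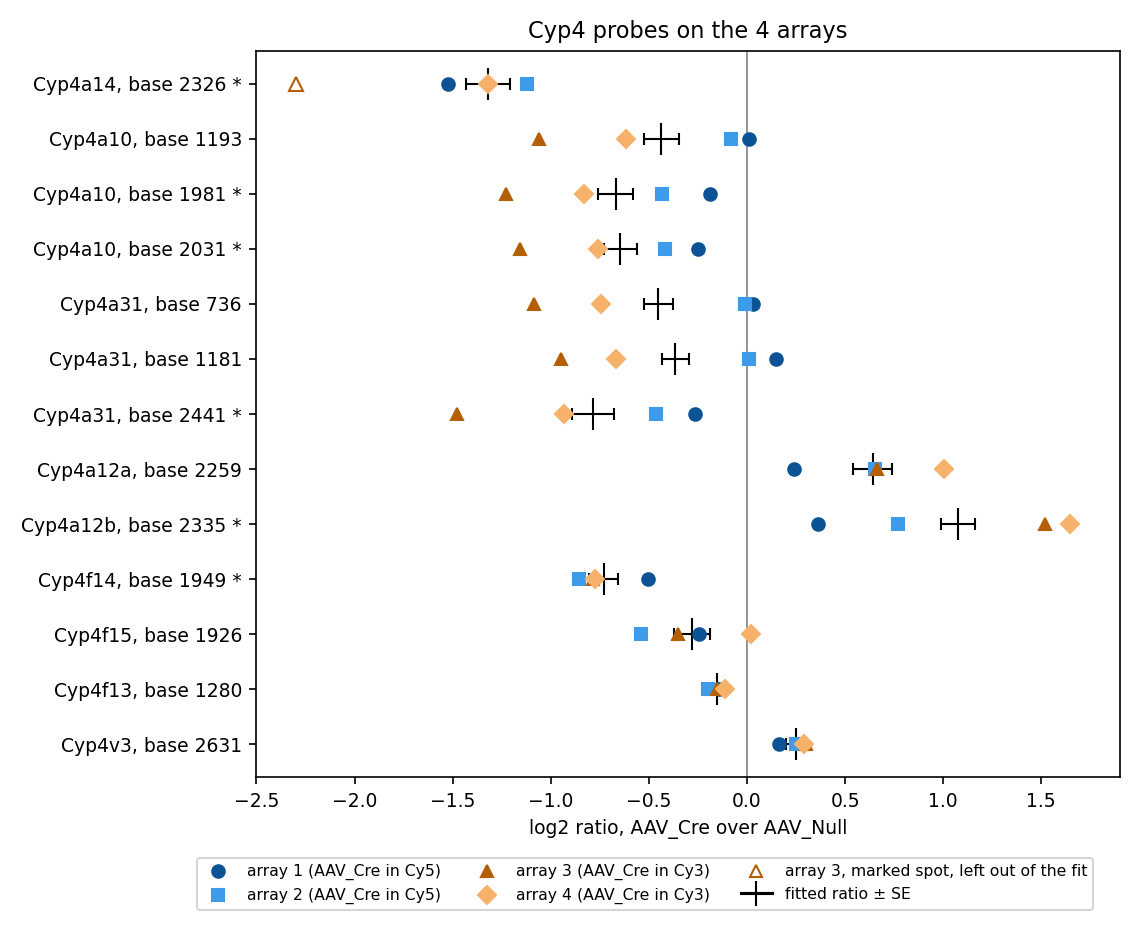
Log2 ratio of AAV_Cre over AAV_Null (x axis) for each of the 13 Cyp4 probes (y axis, by gene and transcript base), with a marker per array and a cross for the fitted ratio ± SE. Stars mark probes that passed an adjusted p of 0.05 over probes. Cyp4a14 lies farthest to the left, the Cyp4a10 and Cyp4a31 probes are lower on arrays 3 and 4 than on arrays 1 and 2, and Cyp4a12b lies farthest to the right. The open triangle is a Cyp4a14 spot at -2.30 that the scanner software marked and the fit left out.

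Cyp4a14, a lauric acid hydroxylase that fasting and PPARα ligands induce in mouse liver, had the lowest ratio of the members. Its log2 intensity was 14.60, 15.68 and 14.25 in AAV_Cre RNA on arrays 1, 2 and 4, against 16.12, 16.80 and 15.57 in AAV_Null RNA. The AAV_Cre RNA was lower on each of these arrays, though its level on array 2 was above the AAV_Null level on array 4. The log2 ratios were -1.52, -1.12 and -1.32, and the fit gave -1.32 ± 0.11 (SE, n = 3 arrays), 0.400-fold, and limma gave an adjusted p of 0.0323. Counted from the lowest ratio, it ranked 7 among the 16081 genes. The spot on array 3 was marked as non-uniform in Cy3, and with it the ratio on that array was -2.30. The probe lies at chr4:115158914-115158973 on the minus strand (mm9).

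Cyp4a10, a PPARα-induced fatty acid hydroxylase, and Cyp4a31, its near copy in the same gene cluster, were measured by 3 probes each. At base 2031 Cyp4a10 had a log2 intensity of 15.57, 15.86, 15.48 and 14.63 in AAV_Cre RNA on arrays 1 to 4, against 15.82, 16.27, 16.64 and 15.38 in AAV_Null RNA. The AAV_Cre RNA was lower within each array, while the levels of the treatments overlapped between arrays. The log2 ratios were -0.25, -0.42, -1.16 and -0.76, and the fit gave -0.64 ± 0.086 (SE, n = 4 arrays), 0.640-fold (limma, adjusted p 0.0416). At base 2441 Cyp4a31 had 14.68, 15.27, 14.76 and 13.89 in AAV_Cre RNA, against 14.94, 15.73, 16.24 and 14.83 in AAV_Null RNA. Again every array had the lower level in the AAV_Cre RNA and the treatments overlapped between arrays. The log2 ratios were -0.27, -0.46, -1.48 and -0.93, and the fit gave -0.78 ± 0.11 (SE, n = 4), 0.580-fold (limma, adjusted p 0.0429).

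The other probes of Cyp4a10 and Cyp4a31 split by position and by brightness alike, and these cannot be told apart here. The probes at bases 1193 and 736 are also annotated to another gene, while that at base 1181 is not. The part of shared binding in the split was not tested. The Cyp4a10 probe at base 1981, which shares 10 bases with the one at base 2031, had -0.19, -0.43, -1.23 and -0.83 on arrays 1 to 4 and a fitted -0.67 ± 0.091, at an adjusted p of 0.0463 over probes in limma. The 3 probes nearer the transcript start did not pass. At base 1193 the Cyp4a10 probe had 0.0091, -0.082, -1.06 and -0.61 and a fitted -0.44 ± 0.089, at an adjusted p of 0.0893. For Cyp4a31, the base 736 probe had 0.028, -0.012, -1.08 and -0.75 and a fitted -0.45 ± 0.074, at an adjusted p of 0.0621. The Cyp4a31 probe at base 1181, the near twin of the Cyp4a10 probe at base 1193, had 0.15, 0.0097, -0.95 and -0.67 and a fitted -0.36 ± 0.071, at an adjusted p of 0.0828. On arrays 1 and 2 the 3 probes nearer the start lay between -0.082 and 0.15. The call for either gene rests on its brighter probes near the transcript end. With the mean of a gene's probes in place of the brightest, Cyp4a10 had -0.58 (limma, adjusted p 0.0536) and Cyp4a31 had -0.53 (limma, adjusted p 0.0561), so that neither passed.

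Cyp4a12b was the member that rose. This gene and Cyp4a12a are near-identical male-biased arachidonic acid hydroxylases, measured here in females. Cyp4a12b had a log2 intensity of 8.30, 10.14, 8.97 and 9.44 in AAV_Cre RNA on arrays 1 to 4, against 7.93, 9.37, 7.45 and 7.79 in AAV_Null RNA. The AAV_Cre RNA was higher within each array, and array 2 had the highest level of either treatment. The log2 ratios were 0.36, 0.77, 1.52 and 1.65, and the fit gave 1.08 ± 0.085 (SE, n = 4), 2.11-fold (limma, adjusted p 0.0206). Its probe lies at chr4:115111580-115111639 (mm9). Cyp4a12a had 7.82, 9.25, 8.12 and 8.46 in AAV_Cre RNA, against 7.58, 8.59, 7.45 and 7.45 in AAV_Null RNA. It too was higher in AAV_Cre RNA on 4 of 4 arrays, with log2 ratios of 0.24, 0.65, 0.66 and 1.01. The fitted 0.64 ± 0.10 (SE, n = 4), 1.56-fold, did not pass (limma, adjusted p 0.0558). Its AAV_Null RNA on array 2 stood apart from the other 3. The scanner software's own background-subtracted signals gave larger ratios, 1.17 for Cyp4a12a (limma, adjusted p 0.0312) and 1.34 for Cyp4a12b. Over the 16 alternatives the adjusted p of Cyp4a12a ran from 0.00823 to 0.258.

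**Figure D3:**
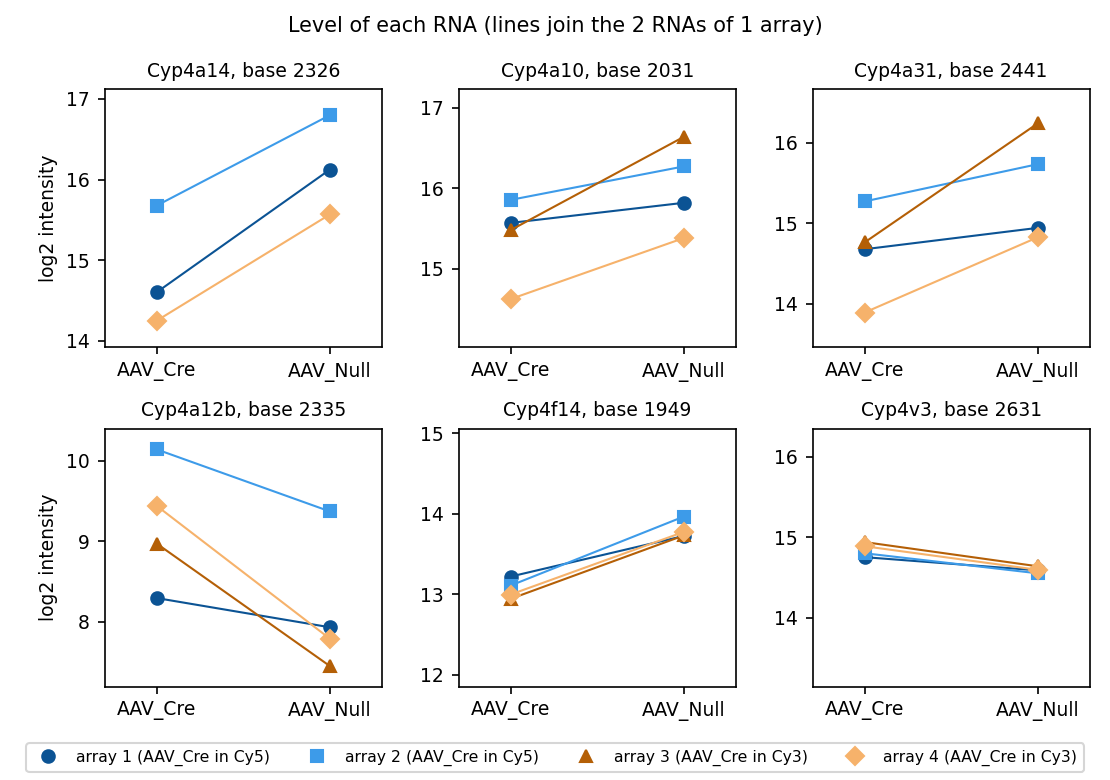
Log2 intensity (y axis) of each RNA for 6 Cyp4 probes, with AAV_Cre at the left and AAV_Null at the right of each panel and a line joining the RNAs of 1 array. The y axes differ in position between panels. For Cyp4f14 all AAV_Cre points lie below all AAV_Null points, and for Cyp4v3 all lie above; the other panels overlap between arrays.

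Cyp4f14, the mouse enzyme that hydroxylates leukotriene B4 and tocopherol side chains, had the smallest range of ratios between arrays of the 5 members called. Its log2 intensity was 13.22, 13.11, 12.94 and 13.00 in AAV_Cre RNA on arrays 1 to 4, against 13.72, 13.96, 13.73 and 13.77 in AAV_Null RNA. Every AAV_Cre RNA was below every AAV_Null RNA. The log2 ratios were -0.50, -0.86, -0.79 and -0.78, and the fit gave -0.73 ± 0.075 (SE, n = 4), 0.603-fold (limma, adjusted p 0.0262). The probe lies at chr17:33042214-33042273 on the minus strand (mm9). Its subfamily neighbours on the same chromosome did not pass. Cyp4f15 had 13.19, 13.54, 13.39 and 13.35 in AAV_Cre RNA, against 13.44, 14.08, 13.75 and 13.33 in AAV_Null RNA. Its ratio was below 0 on 3 arrays and 0.020 on array 4, and the fitted -0.28 ± 0.092 (SE, n = 4) had an adjusted p of 0.176 in limma. Cyp4f13 had 10.56, 10.68, 10.63 and 10.52 in AAV_Cre RNA, against 10.70, 10.88, 10.78 and 10.63 in AAV_Null RNA. It was lower within each array, and the fitted -0.15 ± 0.049 (SE, n = 4), 0.901-fold, also had an adjusted p of 0.176. No test between the Cyp4f genes was run.

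Cyp4v3, the mouse counterpart of the human fatty acid hydroxylase CYP4V2, is neither a Cyp4a nor a Cyp4f gene. It had a log2 intensity of 14.75, 14.80, 14.94 and 14.89 in AAV_Cre RNA on arrays 1 to 4, against 14.59, 14.55, 14.64 and 14.60 in AAV_Null RNA. All AAV_Cre levels were above all AAV_Null levels. The difference was small, with ratios of 0.16, 0.25, 0.30 and 0.29 and a fitted 0.25 ± 0.050 (SE, n = 4), 1.19-fold, and its adjusted p of 0.0824 in limma did not pass. Cyp4f14 and Cyp4v3 were the 2 members whose treatments did not overlap, and 6.69% of all 16081 genes had such levels in either direction.

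The ratios of several Cyp4a probes differed between the dye orientations. At base 2031 of Cyp4a10 the mean log2 ratio was -0.33 on arrays 1 and 2 and -0.96 on arrays 3 and 4. Cyp4a31 at base 2441 had -0.36 and -1.21 on these pairs of arrays, and Cyp4a12b had 0.57 and 1.58. Cyp4f14 had -0.68 and -0.78. The sign was the same in both orientations for each of these 4 probes. The size differed between the orientations for those of Cyp4a10, Cyp4a31 and Cyp4a12b. The dimmer Cyp4a31 probes at bases 736 and 1181 had means of 0.0083 and 0.080 on arrays 1 and 2. On arrays 3 and 4 they had -0.91 and -0.81, so their sign differed between the orientations. The Cyp4a10 probe at base 1193 had -0.036 on arrays 1 and 2 and -0.84 on arrays 3 and 4. The dye effect was called for 0 of the 9 members in limma, against 2.68% of all genes, and 3 members had an unadjusted p under 0.05 for it. Its adjusted p in limma was 0.0615 for Cyp4a12b, 0.107 for Cyp4a31 and 0.122 for Cyp4a10. For Cyp4a14, array 4 alone stood for its orientation, since the spot on array 3 was left out. Its mean log2 ratio was -1.32 on arrays 1 and 2, and the ratio on array 4 was -1.32. Each orientation held other RNAs, so dye and RNA pair cannot be told apart, and the SE does not hold a difference between the pairs. In a fit without the dye effect, Cyp4a14 and Cyp4f14 passed, and Cyp4a12b at an adjusted p of 0.0846, Cyp4a10 at 0.125 and Cyp4a31 at 0.140 did not.

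Of 11 further Cyp4 genes listed, 5 were bright enough to be tested, and 0 rose, 0 fell and 5 did not pass. An unadjusted p under 0.05 in limma was found for 2 of the 5. Among all 16081 genes, 2.76% passed and 3634 had an unadjusted p under 0.05. The median log2 ratio of the 5 was -0.15. Cyp4a32, another copy in the Cyp4a cluster, had the smallest p of them. It had 0.13, 0.055, -0.64 and -0.67 on arrays 1 to 4, which was above 0 in 1 orientation and below 0 in the other. The fitted -0.28 ± 0.050 (SE, n = 4) had an adjusted p of 0.0670 in limma, and its dye effect passed, at an adjusted p of 0.0448.

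Genes on either side of the hydroxylases in the pathway are read against the 2.76% of all genes that passed, and against the 3634 of 16081 with an unadjusted p under 0.05. Among 13 redox partners and enzymes of the later steps of omega-oxidation, 0 rose, 1 fell and 12 did not pass, with a median log2 ratio of -0.073, and 7 had an unadjusted p under 0.05. The gene that fell was Adh4, an alcohol dehydrogenase that oxidises omega-hydroxy fatty acids and retinol, at -0.93 ± 0.12 (SE, n = 4) and an adjusted p of 0.0379. Of 18 tested peroxisomal oxidation genes, 0 rose, 1 fell and 17 did not pass, with a median of 0.053, and 5 had an unadjusted p under 0.05. Crot, which puts shortened chains on carnitine for their exit from peroxisomes, fell by 0.63 with an SE of 0.076 over 4 arrays (limma, adjusted p 0.0358). Cyp4a10 and Cyp4a14 are PPARα targets, and of 26 genes that comprise Ppara, its partners and its other liver targets, 1 rose, 0 fell and 25 did not pass, with a median of 0.0078, and 6 had an unadjusted p under 0.05. Cd36, a fatty acid transporter, was the 1 that rose, by 1.18 with an SE of 0.062 over 4 arrays (limma, adjusted p 0.0107). The median over all genes was -0.0026.

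Arachidonic acid is also a substrate of Cyp2c and Cyp2j epoxygenases, and in that list of 13 tested genes, soluble and microsomal epoxide hydrolases included, 0 rose, 6 fell and 7 did not pass. The median log2 ratio was -0.42, and 9 of the 13 had an unadjusted p under 0.05. Of all 16081 genes 2.76% passed, and 3634 had an unadjusted p under 0.05. Cyp2c23 fell by 1.34, Cyp2c38 by 0.78, Cyp2c29 by 0.43 and Cyp2c54 by 0.42, at adjusted p of 0.0206, 0.0204, 0.0319 and 0.0416 in limma. All 4 were below 0 on 4 of 4 arrays, as were the brightest probes of Cyp4a10 and Cyp4a31 and the probe of Cyp4f14. The Cyp4a10 and Cyp4a31 probes nearer the transcript start were not. The Cyp2c genes are near copies of each other, and how their probes share RNA was not tested.

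Cyp4a12a and Cyp4a12b belong to the genes that male mouse livers express more than female ones. Of 13 other male-biased genes tested, 4 rose, 0 fell and 9 did not pass, with a median log2 ratio of 0.18. An unadjusted p under 0.05 in limma was found for 9 of the 13, in both directions. Over all 16081 genes 2.76% passed, and 3634 had an unadjusted p under 0.05. Elovl3, a fatty acid elongase, had 1.21, the major urinary protein gene Mup21 had 0.81, Susd4 had 0.74 and Nudt7 had 0.42, all called. Slco1a1 and Hsd3b5 had the lowest ratios of the list, -0.74 and -0.58, without passing (limma, adjusted p 0.0510 and 0.0628). The female-biased list had 11 tested genes, of which 4 rose and 0 fell while 7 missed the threshold, and its median was 0.47. Of these 11, 6 had an unadjusted p under 0.05. The bile acid and steroid sulfotransferase Sult2a1 rose by 1.74, Cyp17a1 by 0.66 and Cyp2b13 by 0.47.

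**Figure D4:**
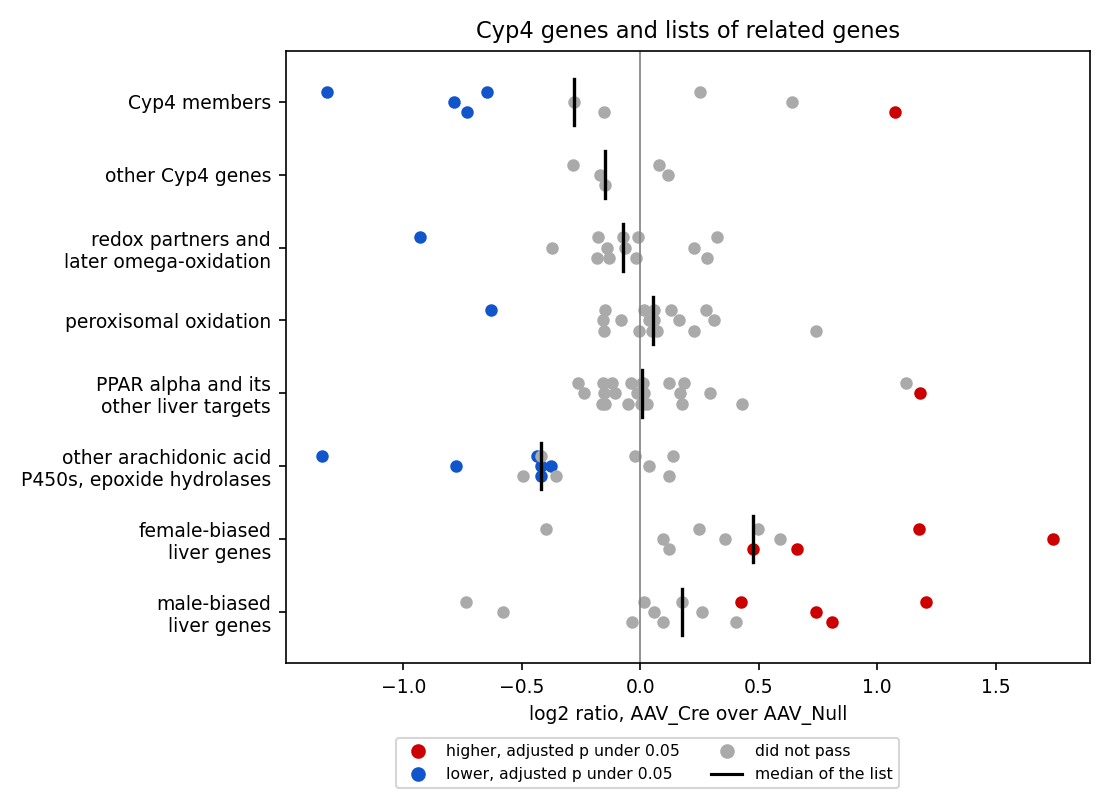
Log2 ratio of AAV_Cre over AAV_Null (x axis) for every tested gene of the Cyp4 members and of 7 lists of related genes (y axis), coloured by call at an adjusted p of 0.05, with a black bar at the list median. The members spread from -1.32 to 1.08, and the medians of the lists run from -0.42 for the other arachidonic acid P450s to 0.47 for the female-biased genes.

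The genes most like Cyp4a14 and Cyp4a12b were taken by the root mean square difference of log2 ratios from theirs, among 12089 named genes measured on 4 arrays. Over the 3 arrays that measured Cyp4a14, the nearest were Itih3, Cyp2d40, Mycn, Serpina11 and Pip5k1a, at 0.153, 0.176, 0.199, 0.222 and 0.247. Of these, Cyp2d40 passed the test, with -1.22, -1.16, -1.10 and -1.32 on arrays 1 to 4 and an adjusted p of 0.0107 in limma. On array 3, where Cyp4a14 had a marked spot, Itih3 and Pip5k1a were above 0, at 0.16 and 0.41. Over 4 arrays the nearest to Cyp4a12b were Scd1, Rab34, Chil1, Uck1 and Atg16l2, at 0.299, 0.311, 0.329, 0.356 and 0.374. Scd1, the stearoyl-CoA desaturase that makes monounsaturated fatty acids, had 0.48, 0.80, 1.57 and 1.07, with the larger ratios on arrays 3 and 4 as for Cyp4a12b.

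In whole liver, fewer cells of a type and less RNA per cell cannot be told apart. All 10 hepatocyte markers were well above background in all 8 channels, and 0 rose, 1 fell and 9 did not pass, with a median log2 ratio of -0.058. The median of these markers was 0.19, 0.15, -0.0021 and -0.49 on arrays 1 to 4. The marker that fell was Trf, at 0.27, 0.33, -1.18 and -1.51 on arrays 1 to 4, and Alb had 0.39, 0.27, -0.95 and -1.27 without passing. Serpina1a, Ttr and Hnf4a likewise had positive ratios on arrays 1 and 2 but negative ones on arrays 3 and 4, without passing, and the other markers of the list did not. The dye effect was called for Trf, Alb, Serpina1a and Ttr, at adjusted p of 0.0273, 0.0316, 0.0253 and 0.0387 in limma, against 2.68% of all genes. These were the brightest markers of the list, with a mean log2 intensity of 17.86, 17.87, 17.89 and 17.80. Hnf4a was next at 16.74. The part of brightness in the dye effect was not tested. For Trf the fitted ratio was -0.52 and the dye effect 0.82. Tat had -0.28, -0.25, 0.64 and 0.26 without passing, Asgr1 and Cps1 were above 0 on 4 of 4 arrays, and Apoa1 and Fga had their lowest values on array 1 and were above 0 on array 3. The part of these differences between arrays in the Cyp4a10 and Cyp4a31 ratios was not tested. Of 8 Kupffer cell, 8 endothelial, 5 neutrophil and 4 cholangiocyte markers tested, 0 rose and 0 fell in limma, with medians of -0.24, -0.17, -0.25 and 0.15. An unadjusted p under 0.05 was found for 1, 6, 1 and 1 of them, and for 4 of the 10 hepatocyte markers. Over all 16081 genes, 3634 had such a p and 2.76% passed the adjusted threshold. On arrays 1 to 4 the median was -0.34, -0.36, 0.34 and -0.65 for Kupffer cell markers. It was -0.49, -0.52, 0.33 and -0.58 for neutrophil markers, which array 3 likewise set apart. Endothelial markers had 0.055, -0.022, -0.39 and -0.35, and cholangiocyte markers had 0.083, 0.16, 0.22 and 0.12. The part of these differences in the Cyp4a ratios was not tested either. Of 6 stellate cell markers tested, 1 rose, 0 fell and 5 did not pass, with a median of 0.30. The marker that rose was Col3a1, at 0.47. Of the 6 stellate cell markers, 4 had an unadjusted p under 0.05.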

How the data were processed

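Whole liver RNA was hybridised to 4 Agilent arrays with 2 dyes each. They shared 1 slide, which left no slide effect to fit. Each RNA was hybridised once, with dyes balanced over treatments, per the labels. The labels' protocols name both a direct reverse transcription and a low input kit (200 ng of RNA) without settling which one applied. Per the file headers, Agilent Feature Extraction 11.5.1.1 gave the spot intensity and its local background. Per the same file headers, the processed intensity is background-subtracted and dye-normalised. The log10 ratio of Cy5 over Cy3 was computed from it by that software, per the file headers. The authors also deposited a table of log2 values, and limma is named without a version in the submitters' processing notes. Against the scanner log10 ratio, the slopes of these log2 values were 3.34, 3.33, -3.29 and -3.39 on arrays 1 to 4, over spots with both processed signals above 2000, where the log2 of 10 is 3.32. They therefore run as AAV_Cre over AAV_Null, with medians of -0.022, -0.038, 0.035 and 0.041, and their normalisation steps are not given in the sources used here.

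Mean intensities and median local backgrounds were used. The steps were normexp background correction (offset 50) and loess within each array, in which control spots had weight 0 (limma 3.58.1, R 4.3.3). Spots marked as outliers were left out and spots of 1 probe averaged. Probes well above background in at least 3 channels of either treatment and measured on at least 3 arrays were fitted with a treatment and a dye effect by lmFit and eBayes. The brightest probe on average stood for a gene. Benjamini-Hochberg adjustment ran over 16081 genes, or over 20337 probes, with 0.05 as threshold. At most 2 residual degrees of freedom stood beside 2.66 prior ones, and the 4 arrays limit the precision. With the dye effect fitted, the p-values measure the spread within arrays 1 and 2 and within arrays 3 and 4, moderated by the prior. That spread may be technical, and a difference between the pairs of arrays is not in it. Levels of single RNAs came from the same values after quantile normalisation of average intensities between arrays. The fit was tested on simulated data with the fitted dye effects and independent noise on each array. Such data hold no further difference between RNA pairs, so the simulation does not bear on that limit.

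The members, the lists and the tests were chosen with earlier results of these data known. Named genes were all members and their probes, Trib1, up to 4 called genes of largest change per list (with none called, the gene of smallest p), and the 5 genes most like Cyp4a14 and like Cyp4a12b. Of the genes this rule names, 1 is not reported here. The hepatocyte markers other than Trf, array values of other list genes and the other genes given without a rule were chosen after their values were seen. Symbols were updated through RefSeq names of GRCm38.p6, which named 27508 probes by accession and 404 by synonym, while 3544 were current and 7973 stayed as in the array files. Coordinates (mm9) were copied from the array files. The alternatives were other backgrounds, normalisations, filters and empirical Bayes settings, no dye effect, separate channels (statmod 1.5.0), outlier spots kept, the mean of a gene's probes, the deposited log2 table, and each array left out. Figures were drawn with matplotlib 3.10.9.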

Additional observations from a re-analysis of the deposited data

Results flagged for a closer look

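In AAV_Null RNA, the Cyp4a12a level on array 2 was far from the other 3, at a log2 intensity of 8.59 against 7.45 to 7.58. Its gap to the nearest level was 0.886 of the whole range, which is above Dixon's critical value for 4 samples. Among 36 groups of 4 values compared, 1 passed that value, and chance alone gives 1.8. The AAV_Cre level on the same array, 9.25, was also the highest of its treatment, and without array 2 the log2 ratio of Cyp4a12a was 0.54, against 0.64 with it.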

How the results depend on the processing

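No member changed direction under the 16 alternatives, where these gave a value. Leaving out 1 array in turn gave 0 to 37 called genes, 0 to 0 members and 0 to 1 list genes, with log2 ratios of -0.74 to -0.54 for Cyp4a10, 0.97 to 1.18 for Cyp4a12b, -1.42 to -1.22 for Cyp4a14, -0.92 to -0.65 for Cyp4a31, -0.82 to -0.64 for Cyp4f14, 0.54 to 0.74 for Cyp4a12a and 0.23 to 0.27 for Cyp4v3, none past the threshold. These fits have fewer arrays; dye-effect calls in members were 0 in each. Cyp4a14 had no value without array 4 or in separate channels, and no test without array 1 or 2. Called genes numbered 270 with no dye effect, 731 on processed signals, 1403 with no background correction, 202 at an offset of 16, 756 with median centring, 2529 in separate channels, 1468 with an intensity trend and robust prior, and 1382 in the deposited log2 table, against 444. Called members, 5 in the report, numbered 2 with no dye effect, 2 at an offset of 16 and 3 with the mean of probes. Genes called in the lists, 17 in the report, numbered 11 with no dye effect, 26 with no background correction, 6 at an offset of 16, 32 in separate channels, 28 with the trend and 27 in the deposited table. A dye effect was called for 1 member with no background correction, 6 with median centring, 1 with the filter on all 8 channels, 1 with outlier spots kept, 2 with the trend and 1 in the deposited table. Calls were lost for Cyp4a10 with no dye effect (-0.64), at an offset of 16 (-0.64), with median centring (-0.52) and with the mean of probes (-0.58); for Cyp4a31 with no dye effect (-0.78), at an offset of 16 (-0.79) and with the mean of probes (-0.53); for Cyp4a12b with no dye effect (1.08); and for Cyp4a14 at an offset of 16 (-1.32). Calls were gained for Cyp4a12a on processed signals (1.17), with no background correction (0.85), median centring (0.64), separate channels (0.64), the filter on all 8 channels (0.64), the trend (0.64) and the deposited table (0.88), and for Cyp4v3 with no background correction (0.25), separate channels (0.25), the trend (0.25) and the deposited table (0.26). The cause of these changes was not tested. Cyp4f13 and Cyp4f15 passed under none of the alternatives. The test in the report is already paired, since it is on the ratio of the 2 RNAs within an array, and the separate-channel fit keeps that pairing through an intraspot correlation of 0.77. With 1 ratio per array there was no further replicate block to fit.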
